A study of Mus musculus with 6 samples.

Results

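Gene body interior windows are stretches of 1 kb that lie within a gene and away from its ends, and their DNA methylation is described here in sorted blood stem and progenitor cells of mice with and without a knock-in allele of Idh1. A window was kept when at least 5 cytosine positions in it were covered in all 6 libraries, when it lay on chromosomes 1 to 19, and when it overlapped a protein-coding or lncRNA gene while lying more than 1 kb from both ends of every such gene. This gave 6879 windows of 24778 in all. The other windows were 15209 that reached within 1 kb of a gene's end, called gene-end windows, and 2690 that touched no gene and lay farther from any, called intergenic. The interior windows held 91868 of the positions shared by all libraries, or 16.8%, at 78020 CpGs, and lay in 4499 host genes. The level of a window is the mean, over its positions, of the percent of reads that kept a C after bisulfite treatment. Where 3 levels are given for a genotype, they are in the order LT-HSC, ST-HSC, MPP.

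The study measured methylation with enhanced reduced-representation bisulfite sequencing (eRRBS), an assay of restriction fragments rich in CpGs. Long-term haematopoietic stem cells (LT-HSC, Lin- Sca+ Kit+ CD150+ CD48-), short-term haematopoietic stem cells (ST-HSC, the same gate with CD48+) and multipotent progenitors (MPP, Lin- Sca+ Kit+ CD150-) were sorted from the marrow of male C57BL/6 mice aged 7 to 10 months, 6 per group and littermates across genotypes. With 1 library per group, the mice of a group are taken to have been pooled. Controls had the genotype IDH1+/+ VavCre+ and the knock-in mice, called KI, IDH1+/lsl VavCre+. Both genotypes thus carried the Cre recombinase driven by Vav, a promoter active throughout blood cells, and each genotype gave 1 library per cell type, 6 libraries in all. It is not stated if the same mice served all cell types. No group had a replicate, and every difference below is between single libraries. The sequencing lanes given in the deposited names held libraries of 1 genotype each, so a lane effect and a genotype effect cannot be told apart.

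In mammalian cells most CpGs within gene bodies are methylated, while CpG-dense stretches such as CpG islands usually are not. DNMT enzymes write the mark and TET enzymes, which need 2-oxoglutarate, oxidise it on the way to removal. IDH1 makes 2-oxoglutarate, and mutant forms of it found in leukaemia make 2-hydroxyglutarate, a competitor of 2-oxoglutarate at these enzymes. Islands inside genes can hold alternative transcription starts, and enhancers in introns of blood genes often gain or lose methylation as stem cells mature.

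A start inside the gene was annotated in or beside 908 of the interior windows. A window is said to hold an annotated start when any base from 250 before to 50 after the start lies in it. The sequences around 3 such starts, from 250 bases before to 50 after, are shown because they span what these windows hold: a dense island without methylation, a start with a level that differed between genotypes, and a start whose level differed between LT-HSC and MPP. They were chosen after their values were seen. They come from RefSeq (GRCm38.p6, the assembly behind mm10), and capitals mark the CpGs measured in all 6 libraries. Runx3, a transcription factor of lymphoid cells, is shown at chr4:135152295-135152594 on the plus strand. Il11, a cytokine, is shown at chr7:4778092-4778391 on the minus strand. Arhgef18, an exchange factor that activates small GTPases, is shown at chr8:3392758-3393057 on the plus strand.
Runx3: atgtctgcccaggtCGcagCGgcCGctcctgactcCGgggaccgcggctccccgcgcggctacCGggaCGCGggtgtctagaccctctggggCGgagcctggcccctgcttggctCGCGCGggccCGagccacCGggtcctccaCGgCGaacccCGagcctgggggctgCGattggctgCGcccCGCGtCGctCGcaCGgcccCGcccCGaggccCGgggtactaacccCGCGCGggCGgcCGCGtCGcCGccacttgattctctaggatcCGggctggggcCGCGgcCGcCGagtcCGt
Il11: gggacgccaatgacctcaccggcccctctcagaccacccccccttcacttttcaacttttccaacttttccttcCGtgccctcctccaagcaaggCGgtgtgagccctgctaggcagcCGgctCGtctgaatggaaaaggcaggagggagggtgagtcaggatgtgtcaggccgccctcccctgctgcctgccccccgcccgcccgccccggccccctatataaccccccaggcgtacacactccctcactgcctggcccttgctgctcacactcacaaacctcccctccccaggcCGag
Arhgef18: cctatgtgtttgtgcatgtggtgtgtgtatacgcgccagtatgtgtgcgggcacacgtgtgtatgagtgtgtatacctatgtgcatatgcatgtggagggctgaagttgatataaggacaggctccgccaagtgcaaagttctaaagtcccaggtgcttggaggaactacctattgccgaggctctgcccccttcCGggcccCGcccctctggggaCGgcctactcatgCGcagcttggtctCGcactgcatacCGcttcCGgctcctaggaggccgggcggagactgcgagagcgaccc

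The Runx3 sequence holds 45 CpGs, of which 40 were measured, and its mean level was 2.53, 2.20 and 0.664% in Control against 2.50, 2.17 and 2.84% in KI. All 6 libraries were thus low at this start. The Il11 sequence holds 13 CpGs, of which 5 were measured, and stood at 28.2, 38.9 and 18.1% in Control against 47.6, 62.1 and 51.1% in KI. Each KI library was above each Control library there, but the Control MPP value is uncertain: 3 of its 6 positions, all on the forward strand, were at 0% on 10 or 11 reads each. The reverse strand of 1 of these CpGs, at 4778272 to 4778273, stood at 85.7% on 28 reads. The Arhgef18 sequence holds 17 CpGs, of which 7 were measured, and stood at 8.76, 24.3 and 61.0% in Control against 3.33, 23.7 and 40.8% in KI, higher in MPP than in LT-HSC in both genotypes. Strands disagreed at Arhgef18 as well. In Control MPP, 1 CpG of Arhgef18, at 3392987 to 3392988, had a level of 100% on the forward strand (33 reads) and 38.8% on the reverse strand (134 reads). Among 644 starts that lay whole inside an interior window under 20%, the median number of CpGs per sequence was 24, against 9 for 13 starts in windows at 20 to 80%, 8 for 12 starts in windows over 80%, and 7 over all 31396 autosomal sequences of the RefSeq table.

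Most interior windows had either a low or a high level of methylation. Averaged over the 6 libraries, 43.7% of them lay under 20%, 46.0% over 80% and 10.3% in between. The mean level was 50.7, 50.3 and 51.2% in Control against 51.6, 52.5 and 53.2% in KI. Gene-end windows lay far lower, at 9.74 to 11.4% over the libraries, and intergenic windows higher, at 60.7 to 63.3%. Interior windows were above gene-end windows by 41.3 ± 0.485 points and stood at -10.3 ± 0.179 points against intergenic windows (SD, n = 6 libraries), in the same direction in 6 of 6 libraries each time (exact two-sided sign-flip test over libraries, p = 0.031, adjusted p = 0.031 over both comparisons, the smallest this test can give). The 6 libraries read the same genome, so this p covers the spread between libraries and not the choice of windows.

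**Figure D1:**
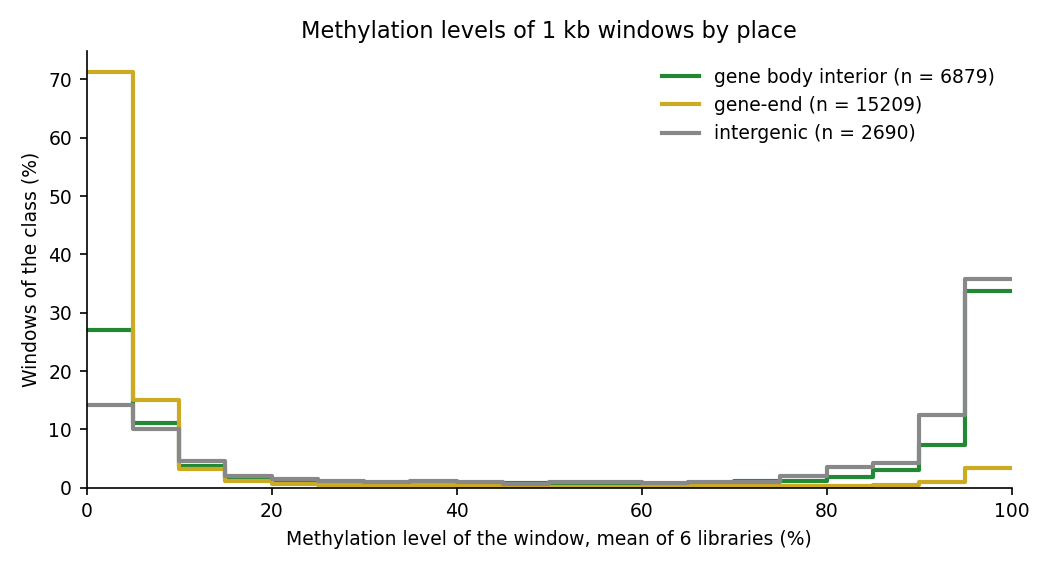
Share of windows (y axis, %) by methylation level averaged over the 6 libraries (x axis, %, in steps of 5 points), for interior, gene-end and intergenic windows as lines. Interior windows peak at both ends, with 27.1% of them under 5% and 33.8% over 95%.

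Position within the gene and the number of measured positions went with the level. Of the windows, 5186 had a single host gene whose strand is known, and along these genes the mean level was 23.7% in the first 20% of the gene from the 5′ end, then 44.7, 56.9, 65.2 and 75.5% in each following 20%. Without the windows that hold an annotated start, the same stretches stood at 32.3, 56.3, 64.7, 70.2 and 76.9%. By distance to the nearest gene end, the level was 31.4% at 1 to 2 kb, 49.4% at 2 to 5 kb, 60.6% at 5 to 20 kb and 62.1% beyond 50 kb. At the edge of the definition, 210 windows that passed the 1 kb limit by at most 100 bases stood at 23.0%, and 248 windows inside a gene that missed it by at most 100 bases at 27.1%. Windows with 5 or 6 positions stood at 75.4%, those with more than 40 at 4.90%, and Pearson's r between level and number of positions was -0.58 across the 6879 windows, which are not independent and share their libraries. Windows with an annotated start stood at 7.22%, and the other 5971 at 58.3%. Hosts that are protein-coding genes (6247 windows, 51.6%) and lncRNA genes (433 windows, 50.5%) had similar means, and windows at 20 to 80% made up 9.68% of the former and 17.3% of the latter.

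**Figure D2:**
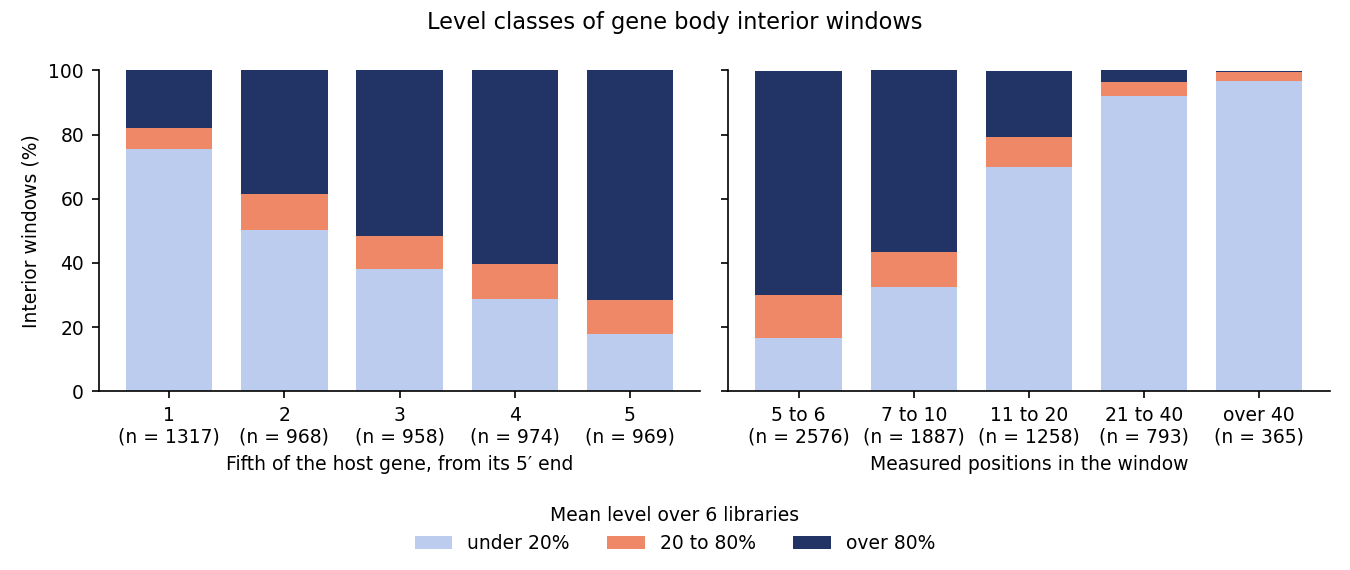
Share of interior windows (y axis, %) with a mean level under 20%, of 20 to 80% and over 80%, by stretch of the host gene, each 20% of its length (left) and by number of measured positions (right). Windows under 20% make up 75.4% of the first stretch and 17.8% of the last, and 16.5% of windows with 5 or 6 positions against 96.7% of those with more than 40.

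Low and high windows occurred within the same gene. Of 1504 genes with at least 2 interior windows, 487 had both a window under 20% and a window over 80%, 324 had only windows over 80% and 421 only windows under 20%. Directly adjacent windows were mostly of the same kind. Of 805 adjacent pairs, 74.2% were both under 20%, 12.5% both over 80% and 1.99% of opposite kind. Over all interior windows 43.7% were under 20%. No rate was computed for pairs farther apart, so the pairs are not compared with the genes. Runx3 shows the range with 7 interior windows. The window with the internal start and the next one had levels of 0.759 to 2.56% (83 positions) and 3.26 to 6.84% (23 positions) over the libraries. The window at chr4:135161001-135162000, farther along the gene, stood at 93.2 to 99.7%.

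The genes of the methylation machinery and of IDH, looked at because the allele acts on that pathway, had few interior windows. Of 21 such genes 7 had an interior window, 15 windows in all. None was 10 points higher or lower in KI in all 3 cell types, where 1.50% of all interior windows were higher. None of the 15 lay at 20 to 80%, where 10.3% of all interior windows lay. Their median difference was 0.165 points against 0.706 over all interior windows. Dnmt3a, a de novo methyltransferase, had 2 dense windows at internal starts with 73 and 112 positions. Over the 6 libraries they stood at 0.913 to 3.12% and 1.53 to 2.95%. Idh1 itself had 1 interior window, at chr1:65179001-65180000 with an annotated start and 7 positions. Its level was 12.9, 3.48 and 0.239% in Control against 2.96, 3.06 and 2.47% in KI, so 1 library, Control LT-HSC, stood apart. Tet3, a TET dioxygenase, stood at 89.1 to 94.7% and 98.9 to 100% in its 2 windows.

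Compared with Control, interior windows had a mean level in KI that was 0.961 points higher in LT-HSC, 2.20 higher in ST-HSC, and 1.98 higher in MPP. The mean was 1.71 ± 0.662 points (SD, n = 3 cell types, which are not replicates; exact two-sided sign-flip test, p = 0.25, the smallest that 3 pairs can give). This direction was not kept in every cell type when every read counted once. Dense windows with low levels then weighed more, and each library had its own weights, from its own reads per window. Counted so, LT-HSC stood at 28.9% in Control and 23.8% in KI, with KI below Control. ST-HSC stood at 29.4% and 29.3%, and MPP at 28% and 30.1%. These values hold differences in where reads fell as well as in level, and the part of each was not tested. Over windows, the difference was 0.791 ± 0.249 points larger than that of gene-end windows and 0.229 ± 0.107 points larger than that of intergenic windows (SD, n = 3; exact sign-flip test, p = 0.25 for both, adjusted p = 0.25). It was larger in 3 of 3 cell types in both comparisons, a design in which no lower p is possible.

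The difference was largest in windows of intermediate level. To class a window without the libraries compared, its level in the other cell types was used. At 20 to 80%, KI interior windows were higher by 5.32 points over 725 windows in LT-HSC, by 10.8 over 703 in ST-HSC, by 7.53 over 700 in MPP. Under 20% the differences were 0.313, 1.43 and 1.83 points, and over 80% they were 0.572, 1.03 and 0.884. In the intermediate class the gene-end windows differed by 4.37, 9.30 and 6.57 points and the intergenic ones by 3.62, 6.29 and 4.32. Interior windows thus exceeded gene-end windows by 0.950 to 1.50 points and intergenic ones by 1.70 to 4.51 points, in 3 of 3 cell types (exact two-sided sign-flip test, p = 0.25, the smallest possible).

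**Figure D3:**
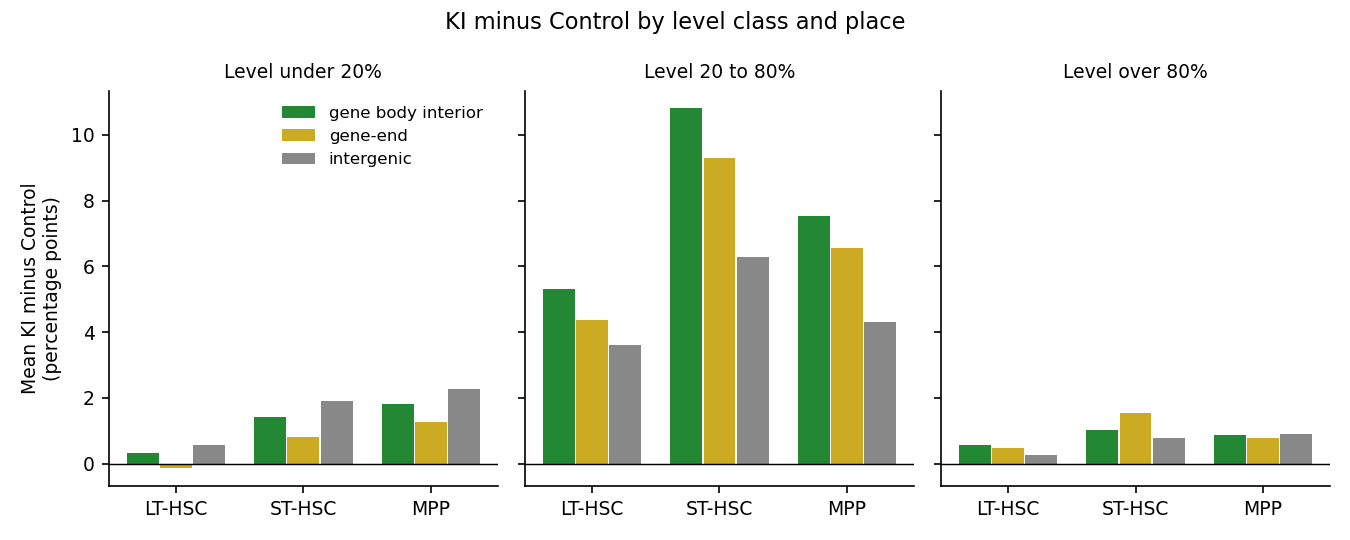
Mean KI minus Control difference (y axis, percentage points) in each cell type for interior, gene-end and intergenic windows, with windows classed by their level in the other cell types. Bars are means over windows, 1 library per genotype and cell type, with no error bar for want of replicates. The intermediate class stands highest, at 5.32, 10.8 and 7.53 points for interior windows.

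By single windows, a difference of at least 10 points was the size rule. In LT-HSC 400 interior windows were higher in KI by that much and 144 lower, where the share over all 24778 windows was 3.76% higher and 1.63% lower. In ST-HSC 564 were higher and 62 lower (5.08% and 0.666% over all windows), and in MPP 588 and 158 (5.46% and 1.72%). As shares, 5.81, 8.2 and 8.55% of interior windows were higher in the 3 cell types, against 7.51, 8.66 and 10.1% of intergenic windows. In all 3 cell types together 103 interior windows were higher, or 1.50%, against 0.9% of all windows and 0.967% of intergenic ones. Lower were 5, or 0.0727%, against 0.0525% of all windows and 0.0743% of intergenic ones. Interior windows held more intermediate levels than gene-end windows. Among windows with a mean level of 20 to 80%, 12.8% of 710 interior, 12.2% of 616 gene-end and 5.95% of 353 intergenic windows were higher in all 3, so the interior and gene-end shares were near each other. Of the 103 windows, 80 had every KI level above every Control level. Their selection favours this, and the share over all windows was not counted. Of the 103, 3 held an annotated start and 53.4% had only 5 or 6 positions, against 37.4% of all interior windows.

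With limma (log2 ratio of methylated to unmethylated reads, cell type as a term, Benjamini-Hochberg adjustment over 24778 windows), 0 interior windows passed an adjusted p of 0.05 for the genotype, where 0.00807% of all windows did. The lowest adjusted p among them was 0.322, at Dedd2. At an unadjusted p under 0.05 there were 573, 491 higher and 82 lower in KI. That was 8.33% of interior windows, against 7.01% of all windows and 8.51% of intergenic ones. Among windows with at least 10 positions, 1 passed, in Def6 (adjusted p = 0.0428 by limma). The values that follow therefore describe single libraries, and no window is called changed.

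The windows with the largest differences in all 3 cell types lay in genes of several kinds. Those in Spred2, Dedd2, Anp32a and Tapt1 differed most, by means of 42.0, 40.5, 39.3 and 38.5 points, each over 5 or 6 positions. Def6, a guanine nucleotide exchange factor in lymphocytes, had the one with the most positions among the 12 largest differences, 26, at chr17:28223001-28224000. Its level was 6.99, 12.1 and 14.1% in Control against 31.5, 49.4 and 52.1% in KI, with no overlap between genotypes. Pooled over reads, Control LT-HSC stood at 6.94% (Wilson 95% interval 5.73 to 8.39, 1412 reads) and KI LT-HSC at 27.4% (24.7 to 30.2, 1026 reads). These intervals cover counting error only, since amplified copies of a molecule are counted too. The forward strand alone differed by 26.5, 36.3 and 34.5 points and the reverse strand by 23.1, 38.2 and 40.5.

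Transcription factors were among them. Nfix, a nuclear factor I protein that supports stem cell survival, had a window at chr8:84784001-84785000 at 8.22, 21.1 and 24.5% in Control against 49.7, 48.2 and 68.2% in KI, where Control LT-HSC rests on 96 reads. Bcl6b, a zinc finger repressor, stood at 38.8, 68.9 and 49.3% in Control against 79.0, 90.4 and 94.3% in KI, over 10 positions. Mef2d, a MADS box factor, stood at 46.3, 37.8 and 46.0% in Control against 79.9, 72.9 and 80.9% in KI. Its difference was the most even over cell types of the 17 named windows, at 34.5 ± 0.830 points (SD over 3 cell types). Nr4a2, a nuclear receptor chosen after its values were seen for its 35 positions, stood at 12.7, 17.5 and 9.27% in Control against 42.3, 33.7 and 25.1% in KI. In each of these 4 windows every KI level was above every Control level.

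Signalling and trafficking genes made up the rest of the named windows. Rin3, which binds Ras and activates Rab5, stood at 6.34, 32.4 and 29.7% in Control against 61.8, 62.8 and 57.4% in KI. Snx10, a sorting nexin, stood at 48.6, 41.7 and 24.7% in Control against 74.5, 71.8 and 76.6% in KI. Camk2g, a calcium/calmodulin-dependent kinase subunit, stood at 22.7, 26.6 and 60.1% in Control against 70.0, 69.1 and 70.8% in KI. In Camk2g the KI libraries were level while Control MPP approached them, leaving a difference of 10.8 points there. Itpk1, an inositol phosphate kinase, stood at 19.9, 33.4 and 40% in Control against 50.8, 69.9 and 72.3% in KI. Its window also holds part of the hairpin of Mir1936, in which no position was measured.

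The 5 windows lower in KI in all 3 cell types were in Rerg, Nacad, Mest, Eps8l1 and Prrt3. Eps8l1, a relative of the actin regulator Eps8, stood at 40.3, 33.1 and 41.1% in Control against 26.8, 18.3 and 23.1% in KI over 19 positions. Of the 3 of them with at least 3 positions on each strand, it is the one in which each strand alone was also lower by at least 10 points in all 3 cell types. Mest, an imprinted gene expressed from the paternal copy, stood at 49.8, 56.7 and 47.1% in Control against 32.8, 39.4 and 32.2% in KI. Its positions on each strand, which need not be the same CpGs, went apart. Those on the forward strand differed by 1.09, -29.4 and -36.8 points and those on the reverse strand by -35.1, -5.28 and 6.99. Nacad behaved in the same way, with 3.37, -24.4 and -25.3 points on the forward and -36.6, -8.67 and -5.61 on the reverse strand. Rerg, a Ras-like GTPase whose window also lies in the lncRNA gene Gm52923, stood at 60.3, 83.2 and 100% in Control against 33.2, 72.7 and 86.9% in KI. Prrt3 stood at 62.4, 68.4 and 69.3% in Control against 45.0, 55.6 and 56.1% in KI.

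**Figure D4:**
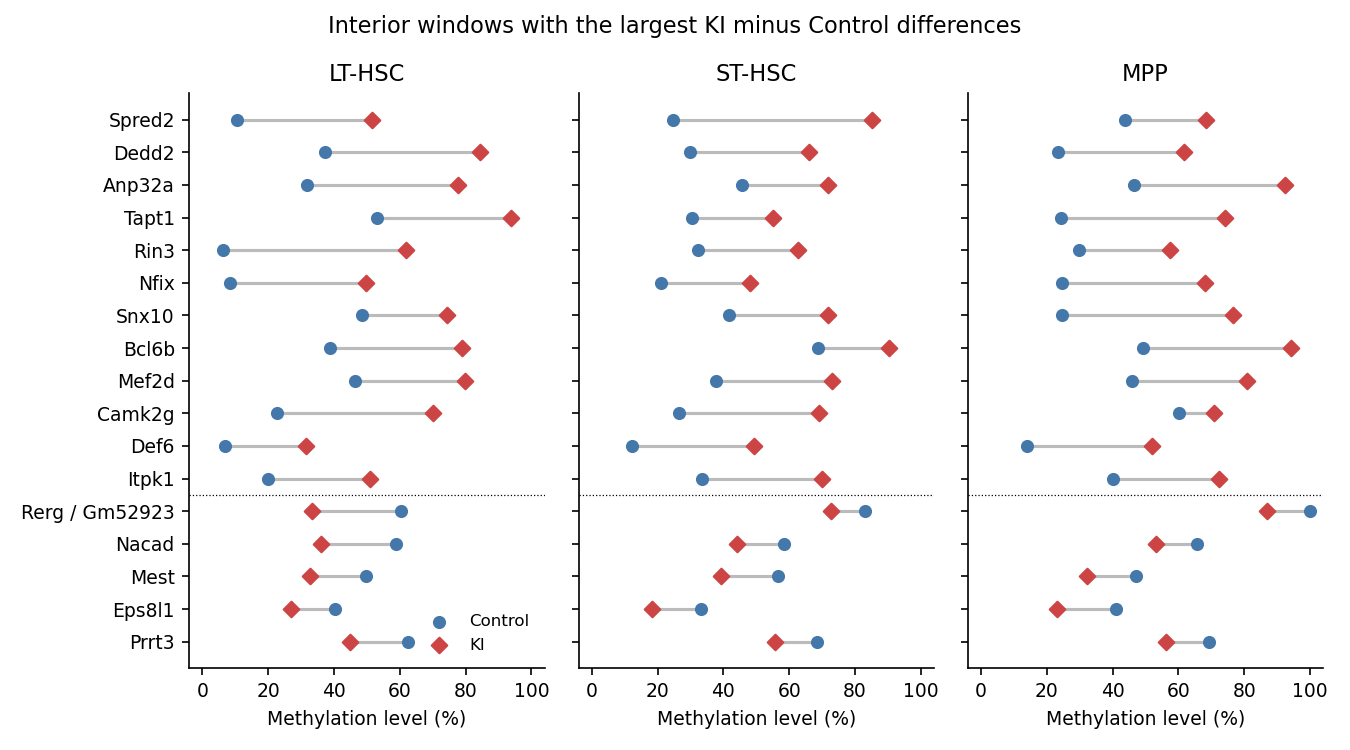
Methylation level (x axis, %) of the 17 named interior windows in Control (circles) and KI (diamonds), 1 panel per cell type, with the 12 higher windows above the dotted line and the 5 lower ones below it. Each point is 1 library. In Rin3 the gap is widest in LT-HSC, from 6.34 to 61.8%.

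Since both strands of a fragment are separate molecules, the positions on each can be averaged apart within a library. Of the 78020 CpGs of interior windows, 13848 were measured on both strands. The averages thus rest largely on different CpGs, and a gap between them can lie between sites as well as between strands. In 4011 interior windows each strand had at least 3 positions. There the median gap between strands was 2.13 to 2.94 points over the libraries, but in the 336 of them at 20 to 80% it was 10.8 to 16.5 points, largest in Control MPP and as large as the size rule. Of 54 such windows higher in KI in all 3 cell types, 49 were higher on both strands in all 3, and 25 were by at least 10 points on each strand. The 54 were selected on means over these same positions, so agreement of the strands is partly built in and is not separate support. These 25 include Def6, Rin3, Snx10, Bcl6b, Dedd2 and Anp32a of the windows above and Nos3, the endothelial nitric oxide synthase. Not among the 25 were windows of Camk2g, Mex3a, Mn1, Nfix (chr8:84771001-84772000), Zfpm1 (chr8:122294001-122295000) and Macrod1 (chr19:7196001-7197000). In Mn1 this holds for both called windows, and at chr5:111419001-111420000 the reverse strand differed by 2.88, 8.67 and 2.36 points. Of 3 lower windows, 1 was lower by that much on each strand. This comparison was added after the values were seen.

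Several genes had more than 1 such window. Slc39a11, a zinc transporter, had 2 windows higher in KI. One stood at 13.3, 17.0 and 18.2% in Control against 31.0, 38.5 and 41.9% in KI, the other at 44.0, 48.2 and 58.0% in Control against 70.4, 67.9 and 78.6% in KI. Macrod1, an ADP-ribose hydrolase, also had 2. The one that lies in Flrt1 as well stood at 65.9, 66.3 and 73.4% in Control against 87.9, 88.4 and 92.6% in KI. Mn1, a transcriptional coactivator rearranged in leukaemia and meningioma, had 2 adjacent ones. Over 36 positions, its window at chr5:111420001-111421000 stood at 28.5, 32.3 and 66.3% in Control against 49.2, 64.5 and 87.8% in KI. Nfix had 2 of 7 windows higher in KI. Its first and last measured windows, near the gene's ends, stood at 0.912 to 3.55% and 1.19 to 2.98% over all libraries.

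From LT-HSC to MPP, interior windows differed in both directions, with more higher than lower in MPP. On average MPP exceeded LT-HSC by 0.545 points in Control and by 1.56 in KI. With every read counted once it was -0.864 in Control and 6.25 in KI, so the direction in Control was not the same. Each library then had its own weights, so these values also hold differences in where reads fell. In Control MPP was higher by at least 10 points at 489 windows and lower at 348 (4.73% and 3.28% over all windows), and in KI 400 and 117 (3.75% and 1.11%). In both genotypes 178 were higher, 2.59% against 1.43% of all windows, and 41 lower, 0.596% against 0.359%. Of intergenic windows 2.45% were higher and 1% lower in both, so the higher share was near that of interior windows. Opposite in the genotypes were 16 windows higher in Control and lower in KI (0.161% of all windows) and 40 the other way (0.436%). No library is shared between the 2 genotypes here. At a mean level of 20 to 80%, the windows higher in both made up 20% of interior, 13.8% of gene-end and 12.7% of intergenic windows, a difference that was not tested. In 106 of the 178, ST-HSC lay between LT-HSC and MPP in both genotypes, and in 162 both MPP levels were above both LT-HSC levels. The selection of the 178 favours the latter, and neither share was counted over all windows.

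With limma 0 interior windows passed for MPP against LT-HSC, as did 0 of all windows, and the lowest adjusted p was 0.152. At an unadjusted p under 0.05 there were 630, 441 higher and 189 lower in MPP. That was 9.16% of interior windows, against 7.41% of all windows and 9.29% of intergenic ones. With the ST-HSC libraries left out of the fit, 13 passed, all of them higher in MPP, with a lowest adjusted p of 0.00671. That fit has few libraries for its terms, so its p-values rest mostly on the variance that limma estimates over all windows. They lay in Arhgap9, Arhgef18, Gfi1, Gm41362, Kcnn4, Msi2, Nkpd1, Prdm16, Rerg, Runx3, Sgms1 and Zfpm1. With at least 10 positions 4 passed, in Arhgap9, Arhgef18, Gata2 and Gfi1. Each window named next had an adjusted p of at least 0.152 by limma with all libraries.

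Stem cell regulators held 11 of these 178 windows. Of 37 such genes 17 had interior windows, 43 in all, and 11 of the 43, or 25.6%, were at least 10 points higher in MPP in both genotypes, against 2.59% of all interior windows, while 1 was lower. The 11 lay in Gata2, Gfi1, Hmga2, Msi2, Prdm16 and Zfpm1. Windows of 1 gene are not independent, and 23.3% of the 43 windows were at 20 to 80%, against 10.3% of all interior windows. The median MPP minus LT-HSC difference over the 43 was 0.628 points, against 0.397 over all interior and 0.463 over all windows, a small difference at the median. By limma 0 of the 43 passed, and 14 higher and 2 lower had an unadjusted p under 0.05. Kit, Slamf1 and Cd48, whose products were sorted on, had no interior window.

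Gata2, a zinc finger factor required by stem cells, had 4 interior windows, and all 4 were among the 11. The one at chr6:88200001-88201000, with 13 positions, stood at 5.46, 12.5 and 25.8% in Control against 11.2, 11.5 and 37.5% in KI. The one at chr6:88204001-88205000 stood at 44.0, 66.7 and 83.6% in Control against 66.5, 70.8 and 92.4% in KI. The other 2 lay lower, at 1.57, 9.04 and 15.1% with 3.8, 10.1 and 15.7%, and at 4.27, 5.75 and 14.3% with 1.96, 14 and 19.7%, Control before KI. MPP was the highest of the 3 cell types in each genotype in all 4 windows. By strand, MPP minus LT-HSC in Control was 28.9 points forward and -1.83 reverse at chr6:88196001-88197000, and 34 and 8.7 at chr6:88200001-88201000. In KI it was 10.6 and 13.2 points at the former and 21.9 and 29.9 at the latter. The remaining Gata2 windows had 5 positions each, too few for this comparison. The first of the low ones also lies in the lncRNA gene Gm38708.

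Gfi1, a zinc finger repressor that restrains stem cell division and directs myeloid fate, had a window at chr5:107721001-107722000 with 19 positions. It stood at 8.69, 24.9 and 47.4% in Control against 14.6, 43.6 and 69.0% in KI. Pooled over reads, Control LT-HSC was at 8.01% (Wilson 95% interval 6.32 to 10.1) and Control MPP at 46.9% (44.0 to 49.8). Its second interior window, with 14 positions, stood at 1.97 to 5.83% in all libraries. Msi2, an RNA-binding protein of stem cells, had a window at chr11:88468001-88469000, 128619 bases from the nearest gene end, at 16.8, 32.7 and 92.6% in Control against 40.9, 75.5 and 86.6% in KI. KI was thus ahead of Control in LT-HSC and ST-HSC and level with it in MPP. Its other 2 windows stood above 93% in every library. Prdm16, a zinc finger methyltransferase family member, stood at 10.3, 16.2 and 51.9% in Control against 8.59, 35.8 and 64.0% in KI in 1 window. Another, near the 5′ end, was lower in MPP, at 74.1, 73.3 and 55.0% in Control against 91.9, 78.2 and 81.4% in KI. Hmga2, a chromatin architectural protein, stood at 29.8, 36.6 and 52.4% in Control against 21.9, 31.4 and 49.0% in KI.

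Zfpm1, the GATA cofactor FOG1 of erythroid and megakaryocyte cells, had 3 of 6 windows higher in MPP, and 1 of them was also higher in KI in all 3 cell types. That one, at chr8:122294001-122295000, stood at 8.50, 23.0 and 25.5% in Control against 22.0, 39.3 and 55.2% in KI. The window at chr8:122309001-122310000 stood at 0, 6.24 and 60% in Control against 0.740, 14.1 and 32.6% in KI, with 84 reads in Control MPP. Its last interior window stood at 98.9 to 100% in all libraries.

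The order LT-HSC, ST-HSC, MPP from low to high was also seen in single windows of Runx3, Arhgef18, Arhgap9 and Kcnn4. Runx3 had a window near its 3′ end, at chr4:135175001-135176000 with 17 positions, at 28.8, 46.0 and 86.7% in Control against 39.8, 82.5 and 87.5% in KI. Another, at chr4:135140001-135141000, stood at 0.539, 4.67 and 17.0% in Control against 8.70, 14.7 and 23.0% in KI, while the island at the internal start between them, printed above, stayed under 3% in all libraries. Arhgef18 had 2 adjacent windows at its internal start, also printed above. The first stood at 9.99, 25.7 and 77.2% in Control against 2.75, 22.1 and 45.1% in KI, and the second at 4.69, 20.7 and 22.7% in Control against 6.18, 16.1 and 49.4% in KI. Control MPP was above KI MPP in the first and below it in the second. Arhgap9, a GTPase-activating protein of blood cells chosen after its values were seen for its 46 positions, stood at 8.81, 23.4 and 46.6% in Control against 18.8, 27.0 and 44.6% in KI. Kcnn4, a calcium-activated potassium channel of blood cells, stood at 9.78, 17.6 and 72.9% in Control against 25.1, 42.4 and 85.9% in KI.

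The widest difference between LT-HSC and MPP was in the lncRNA gene Gm41362, at 14.3, 49.2 and 100% in Control against 23.2, 70.0 and 89.2% in KI over 5 positions. Rad51b, a gene of homologous recombination, stood at 28.7, 61.7 and 64.0% in Control against 23.5, 84.0 and 93.9% in KI. Unc13d, which primes granules for release, stood at 25.3, 44.2 and 81.0% in Control against 31.6, 71.0 and 76.8% in KI. Fgf12, an intracellular member of the fibroblast growth factor family, stood at 7.66, 40.8 and 55.9% in Control against 13.3, 37.8 and 65.7% in KI. In each of these 4 windows, LT-HSC was the lowest and MPP the highest in both genotypes.

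Windows lower in MPP were fewer. Rab11fip4, an effector of the recycling GTPase Rab11, stood at 87.7, 55.5 and 33.4% in Control against 87.5, 69.0 and 47.1% in KI. Ksr1, a scaffold of the Raf to ERK cascade, stood at 80.8, 70.6 and 49.1% in Control against 90.9, 70.9 and 51.4% in KI. Ezr, which encodes ezrin, a linker of membrane and actin, stood at 81.3, 73.3 and 47.8% in Control against 91.9, 66.2 and 59.4% in KI. The remaining named ones, in Cuedc1, Tmem143, 4930471L23Rik, Nrxn2 and Abat, differed by -30.0, -27.8, -26.9, -26.2 and -25.9 points from LT-HSC to MPP, averaged over both genotypes. In 17 of the 41 windows ST-HSC lay between the others in both genotypes, against 106 of 178 in the other direction.

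**Figure D5:**
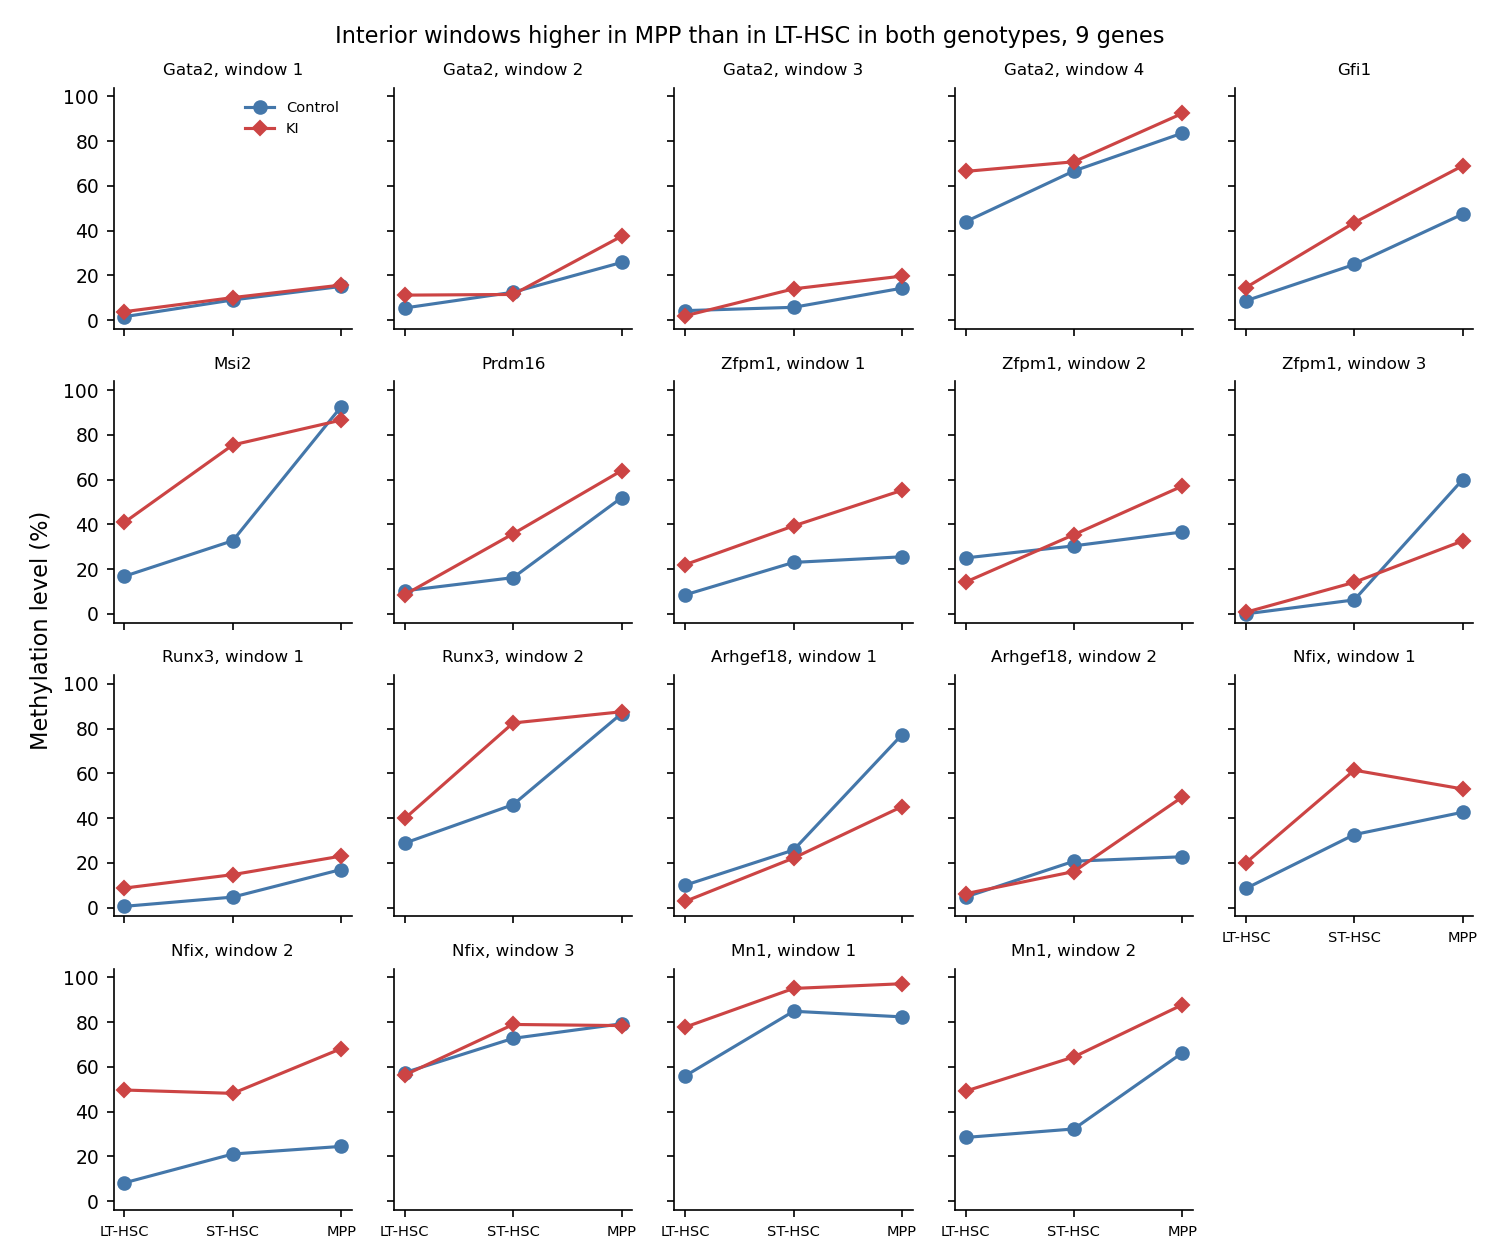
Methylation level (y axis, %) of 19 interior windows of 9 genes in LT-HSC, ST-HSC and MPP (x axis), Control as circles and KI as diamonds, 1 library per point. All were at least 10 points higher in MPP than in LT-HSC in both genotypes, and they are in genomic order within a gene. Arhgef18 shows Control above KI in MPP in its first window (77.2 and 45.1%) and below it in its second (22.7 and 49.4%).

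Other gene lists are set beside the 2.59% of all interior windows that were higher in MPP in both genotypes and the 1.50% higher in KI in all 3 cell types. Of 34 lymphoid windows 3 (8.82%) were higher in MPP, in Gata3 and Runx3, and 0 in KI. Of 14 erythroid and megakaryocyte windows 3 (21.4%) were higher in MPP and 1 (7.14%) in KI, all in Zfpm1, which is also among the stem cell regulators. The 9 myeloid windows had 1 (11.1%) higher in MPP, in Gfi1, also a stem cell regulator above. The 11 windows of DNA damage response genes had 1 (9.09%), in Rad51b, and the 105 of homeobox and PAX genes had 1 (0.952%), in Zfhx3. Differences between the lists were not tested. In each of these lists 0 windows passed limma in either comparison.

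The methylation of genes that mark other cells was read beside these. Of 15 windows of endothelial genes 2 (13.3%) were higher in MPP, in Kdr and Nos3, and 1 (6.67%) was higher in KI, in Nos3. Their median KI minus Control difference was 3.29 points, against 0.706 over all interior windows, and 26.7% of them lay at 20 to 80%, against 10.3%. Kdr, a receptor for vascular endothelial growth factor, stood at 27.5, 24.2 and 74.8% in Control against 33.6, 52.0 and 79.1% in KI. Nos3 stood at 3.57, 6.52 and 31.2% in Control against 15.9, 33.5 and 60.9% in KI. The 39 windows of stromal collagen and matrix genes had 0 in either comparison and a mean level of 83.2%. Markers of mature neutrophils, B cells and T cells had 3 windows, with 0 called. Methylation does not give the share of such cells in the sorts, and their part in the differences was not tested.

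The windows that differed between genotypes and those that differed between cell types overlapped in part. Of the 103 windows higher in KI and the 178 higher in MPP, 30 were shared, 29.1% of the former and 16.9% of the latter. Of all interior windows, 2.59% were higher in MPP and 1.50% in KI. Both kinds lay mostly at a mean level of 20 to 80%, with 91 of the 103 and 142 of the 178. Among the 710 interior windows at that level, 20% were higher in MPP and 12.8% in KI. The comparisons share libraries, so no test is given. Windows in both included Nfix, Itpk1, Kcnn4, Mn1, Zfpm1 and Nos3. Across cell types, which share no library, Pearson's r of the genotype difference over 6879 windows was 0.33 for LT-HSC with ST-HSC, 0.17 for LT-HSC with MPP and 0.33 for ST-HSC with MPP. That of MPP minus LT-HSC between the genotypes was 0.34. Windows are not independent, and these are descriptions.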

How the data were processed

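The submitters' processing notes name Bismark 0.10.0, SAMtools 1.0, methylKit 0.9.1 and the mouse build mm10. How they were set, whether duplicates were removed, and how complete the conversion was: not given in the sources used here. Per the file headers, each deposited row holds the read count (coverage) of 1 position, at least 10, and the percent of its reads with C and with T. The product of both gave whole methylated reads at 100% of positions (tolerance 0.01% of the coverage). Reads per library summed to between 38284759 and 53884467, and interior windows had medians of 331 to 508 reads. Copies of 1 molecule cannot be told from separate molecules, so intervals cover counting error only.

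Gene extents came from RefSeq GRCm38.p6, and strand from its promoter table, whose CpGs held 106997 of 106997 measured positions within it. The fit used limma 3.58.1 (R 4.3.3) on log2((methylated + 1)/(unmethylated + 1)), with genotype and cell type as terms and a variance trend, and was tested on simulated data. The spread is that between cell types, and whether they came from the same mice is not given. Alternatives were a coverage of 20, 10 positions, thinning to 10 reads, 2 kb from ends, pooled reads, a prior of 0.5, no trend, 20 points, and leaving out a cell type. Named were the 12 largest differences per direction in KI, the 8 in MPP and called windows of gene lists. Further windows, chosen after their values were seen, are those of Gata2, Nfix, Zfpm1, Mn1, Runx3, Arhgef18, Gfi1, Msi2, Dnmt3a, Tet3, Idh1, Hmga2, Slc39a11 and Macrod1 outside that rule. The windows and lists were chosen with earlier results of these data known. Window sequences were not used here. The results of 2 further gene lists are not reported here.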

Additional observations from a re-analysis of the deposited data

Results flagged for a closer look

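Among the named windows, 2 had a KI minus Control difference of at least 10 points in opposite directions in 2 cell types. In Gm41362 KI was 20.7 points higher in ST-HSC and stood at -10.8 points in MPP, where Control was at 100%. In Zfpm1, at chr8:122296001-122297000, KI was 20.5 points higher in MPP and stood at -10.8 points in LT-HSC. The difference between cell types was not tested, each value rests on 1 library per genotype, and both windows have 5 positions.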

How the results depend on the processing

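Of the windows at least 10 points apart in all 3 cell types (103 higher and 5 lower in KI), 64 and 1 were left with 20 reads per position, 31 and 2 with 10 positions, and 19 and 0 with 20 points, and 1 lower one beyond 2 kb from gene ends. Those higher and lower in MPP (178 and 41) came to 95 and 16, 47 and 6, and 69 and 9 with the first 3 of these settings. The first 2 settings test fewer windows: 1.56% of 4115 and 1.14% of 2708 were higher in KI, against 1.50%. With 20 reads per position, 23 differences of the named windows had no value, among them those of Spred2, Anp32a, Rin3, Nfix and Snx10. Of the others, 20 stayed within 1 SD over cell types or genotypes, 2 moved further and 0 were reversed. On each strand separately, added after the data were seen, 25 and 1 remained for KI and 33 and 4 for MPP. With a cell type left out the rule asks for 2 cell types, and 241 and 9 (without LT-HSC), 155 and 18 (without ST-HSC) and 197 and 16 (without MPP) were higher and lower in KI.

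limma called 1 interior window for genotype and 4 for MPP with 10 positions, and 13 for MPP without ST-HSC, where the cause was not tested. All other settings gave 0, with lowest adjusted p of 0.0928 to 0.754 for genotype and 0.136 to 0.748 for MPP.

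MPP minus LT-HSC (0.545 in Control, 1.56 in KI) was 0.663 and 1.72 with 20 reads, 0.602 and 1.69 with 10 positions, 0.492 in Control beyond 2 kb and 1.65 in KI with pooled reads. The excess of the KI difference over intergenic windows turned to -0.0641 points with 10 positions. With windows weighted by their reads, added after the data were seen, the mean KI difference turned to -1.05 points (-5.08 in LT-HSC, -0.0898 in ST-HSC), its excess over gene-end windows to -1.41, and MPP minus LT-HSC to -0.864 in Control, with 6.25 in KI. These weights favour dense windows of low level and differ between libraries. The values thus also hold how the reads of each library fell over windows, and the part of this was not tested. Levels against gene-end windows (16.3 to 46.8 points) and intergenic windows (-13.1 to -4.78) kept their direction in every setting tried.

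Median reads per position were 35 to 63 over the libraries, and each group is 1 library, so no value has an error between animals.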

Other observations

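Some interior windows overlap miRNA hairpins, and 3 of the windows higher in KI in all 3 cell types are among them. Of all interior windows 1.50% were higher in this way. No share was computed over the windows with a hairpin, so the count does not set them apart. The window of Mex3a, an RNA-binding protein gene, that holds the Mir1905 hairpin had levels of 47.7, 68.4 and 83.2% in Control against 89.8, 89.2 and 93.5% in KI. The window shared by Ptbp1, a splicing regulator, and Plppr3, which holds the Mir6910 hairpin, had 52.9, 80.9 and 82.5% against 91.6, 92.2 and 93.2%. The third, in Itpk1 with Mir1936, is described above. None of these 3 hairpins held a measured position, so the values describe DNA beside them. Mir149, within Gpc1, held 4 measured positions in its hairpin. Its window stood at 40.7, 14.5 and 29.0% in Control against 45.9, 49.9 and 37.4% in KI, higher in KI in each cell type but by less than 10 points in LT-HSC and MPP.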
